A study of Mus musculus with 2 samples.

Results

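Late proximal tubule cells were taken as the cells with at least 3 unique molecular identifiers (UMIs, the count of distinct RNA molecules) of Slc7a13 and Slc22a30 together, fewer than 3 UMIs of Havcr1 and none of Ptprc. They numbered 1003 of 19478 cells, with 935 of 9452 in the control library and 68 of 10026 in the haplodeficient library. The cells were thus chosen by measured UMIs of these 4 genes, whose levels, like the share of cells taken, are a description only. Slc7a13 encodes an aspartate, glutamate and cystine transporter, and Slc22a30 a member of the organic anion transporter family. Havcr1 (KIM-1) marks injured tubule cells and Ptprc (CD45) marks leukocytes. Barcodes counted as cells from 500 UMIs and 200 genes upward, with no more than 50% of UMIs from mitochondrially encoded genes.

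The study measured single-cell RNA of injured mouse kidneys 14 days after ischaemia and reperfusion of 1 kidney, with 1 library per group. The control mice were Cre- and the haplodeficient mice were Cdh5-CreERT2; Phd3f/+, that is, they carried 1 floxed allele of Phd3 (Egln3, an oxygen-dependent prolyl hydroxylase) and a tamoxifen-inducible Cre driven by the promoter of the endothelial cadherin gene Cdh5. Mice of both groups had the injury and 4 tamoxifen injections, and both libraries were in batch 1. The labels give neither the sex or age of the mice, nor the number of animals in a library, nor whether control mice carried the floxed allele. The Cre is endothelial, so the tubule cells described here were not its stated target. Since each group is 1 library, differences between groups could not be tested. The ranges in parentheses are 95% intervals that cover the counting of UMIs or cells, not differences between animals. Those of UMI levels and ratios do not cover differences between cells either.

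The proximal tubule reclaims most of the filtered solutes and is divided along its length into an early convoluted part (S1 and S2) and a late straight part (S3) in the outer stripe of the medulla. The early part carries high-capacity transporters such as the glucose transporter Slc5a2, and the late part high-affinity ones for what is left, together with enzymes of lipid and drug metabolism. The late part is known as the tubule segment most readily injured by ischaemia, and in mice it differs between the sexes under control of androgens. Acsm3, a medium-chain acyl-CoA synthetase of mitochondria, was used as a further marker of the late part, and Slc5a2 with the lactate transporter Slc5a12 as markers of the early part.

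The control library held 134190236 UMIs and the haplodeficient library 114668145, with medians of 9160 and 5861.5 UMIs per cell. Mitochondrial UMIs had medians of 10.2% and 2.72%. The libraries shared 28 cell barcodes. Members were deeper than the average cell, and alike between libraries, with medians of 15485 and 15532.5 UMIs. Their median mitochondrial share was 19.6% in control and 8.82% in haplodeficient members.

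Late proximal tubule cells made up 9.89% (9.30 to 10.5) of control cells and 0.678% (0.527 to 0.859) of haplodeficient cells. The lower share was not particular to members. Early proximal tubule cells, defined below, took 16.7% (15.9 to 17.5) of control cells against 2.38% (2.09 to 2.70) of haplodeficient ones. For Havcr1-positive cells without Ptprc the shares were 6.21% (5.73 to 6.72) and 2.38% (2.09 to 2.70). Leukocytes with 3 or more Ptprc UMIs went the other way, numbering 762 control and 2260 haplodeficient cells. Among the cells with 3 or more UMIs of the late pair, 88 of 1049 control cells (8.39%, 6.78 to 10.2) and 28 of 105 haplodeficient cells (26.7%, 18.5 to 36.2) were left out for Havcr1. Ptprc removed 31 and 12, of which 5 and 3 also had Havcr1. Cells that missed the limit by 1 UMI, with 2 UMIs of the pair, numbered 338 and 44, and those just inside it, with 3 UMIs, 214 and 26. In the control library Kap, the androgen-regulated kidney protein gene, stood at 12267 CPM (a gene's UMIs per 1000000 UMIs of the summed cells) just outside the limit and at 16288 CPM just inside it, and in the haplodeficient library at 8338 and 6426 CPM. Acsm3 stood at 48.1 and 52.9 CPM in control cells and at 7.50 and 3.52 CPM in haplodeficient cells. Neither gene was thus higher just inside the limit than just outside it in the haplodeficient library.

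The members were of 2 kinds, and the libraries held them in different proportions. In the control library 635 members had fewer than 3 UMIs of Slc5a2 and Slc5a12, and 300 (32.1%, 29.1 to 35.2) had 3 or more. In the haplodeficient library 14 had fewer than 3, and 54 of 68 (79.4%, 67.9 to 88.3) had 3 or more. The first kind is called early-low and the second early-positive below. This division was made after the values had been seen. As shares of all cells, early-low members took 6.72% (6.22 to 7.24) in the control library, against 0.140% (0.0764 to 0.234) in the haplodeficient one.

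**Figure D1:**
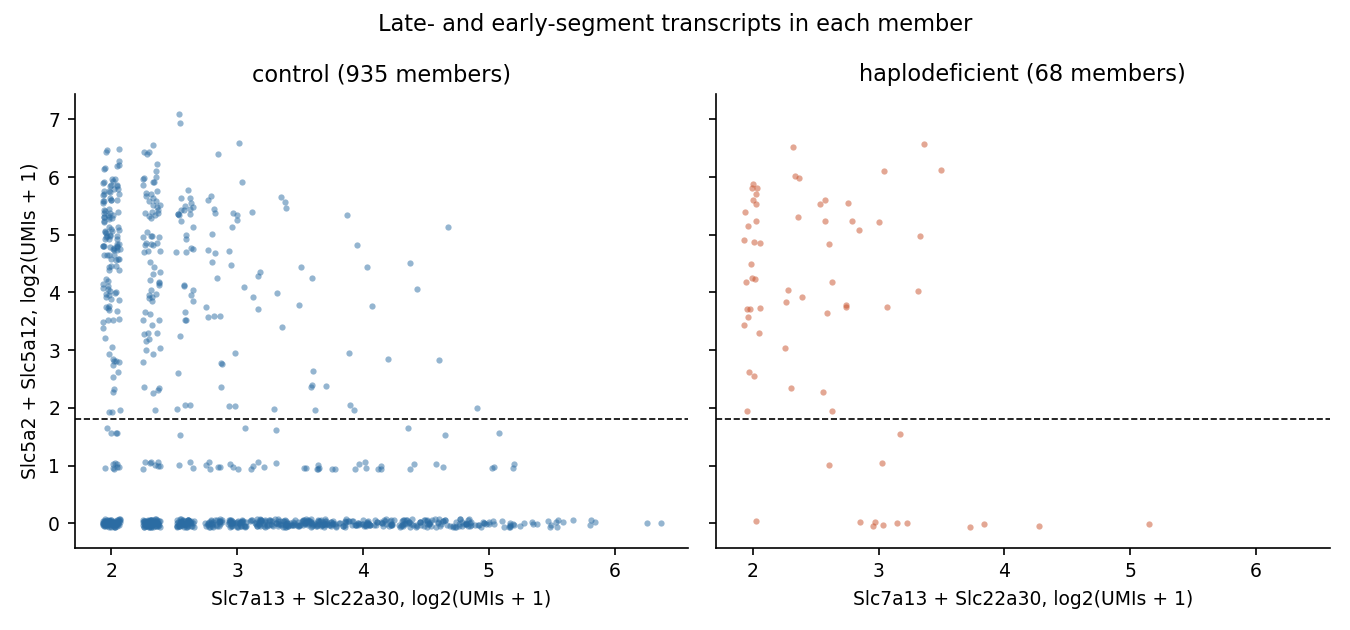
UMIs of the late pair Slc7a13 and Slc22a30 (horizontal) against those of the early pair Slc5a2 and Slc5a12 (vertical) in each member, both as log2(UMIs + 1), with a small random shift so that points do not cover each other. The dashed line marks 3 early UMIs. Of the 68 haplodeficient members 54 lie above it, against 300 of 935 control members.

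By Acsm3, the marker that the rule did not use, the label of late proximal tubule held for early-low members of both libraries and not for most early-positive ones. As a description of the genes that chose the cells, Slc7a13 made up 66.3% of the UMIs of the late pair in control early-low members and 64.3% in haplodeficient ones. In early-positive members it made up 20.6% and 2.09%, so that these cells had met the rule mainly through Slc22a30. Acsm3 had a UMI in 538 of 635 control and 10 of 14 haplodeficient early-low members. Among early-positive members it had a UMI in 73 of 300 and 3 of 54. By Acsm3 the label did not describe most haplodeficient members.

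Thinning every cell to 5000 UMIs, which makes shares comparable across depths, left the same order. Of 596 thinned control early-low members 65.3% (61.3 to 69.1) had an Acsm3 UMI, and of the 14 haplodeficient ones 57.1% (28.9 to 82.3). In early-positive members the shares were 10.1% (6.90 to 14.1) of 298 and 1.92% (0.0487 to 10.3) of 52. Leukocytes with 3 or more Ptprc UMIs, which should lack the gene, gave 2.18% (1.09 to 3.87) of 504 control and 0 of 1163 haplodeficient cells, where 0 has an upper bound of 0.317%. Before thinning the leukocyte shares were 2.76% and 0.177%, at median depths of 6719.5 and 5218 UMIs. Before thinning the haplodeficient early-positive share was 5.56% (3 of 54 cells), above the leukocyte share, and after thinning it rested on 1 cell.

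The more UMIs of the late pair a cell had, the fewer members were early-positive. In the control library 59.8% of the 214 members with 3 UMIs were early-positive, 46.1% of 241 with 4 to 5, 19.9% of 236 with 6 to 11 and 5.74% of 244 with 12 or more. In the haplodeficient library the shares were 96.2% of 26, 94.4% of 18, 60.0% of 20 and 0 of 4. Kap ran the other way in the control, from 16288 CPM at 3 UMIs to 55129 CPM at 12 or more. Free RNA in barcodes of 1 to 100 UMIs held the late pair at 107 CPM in control and 8.55 CPM in haplodeficient barcodes. Its part in which cells met the rule was not tested. Likely doublets, the cells with the highest scores of a doublet caller, were 62 of 935 and 4 of 68 members, and 0 of the 14 haplodeficient early-low members.

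Between the libraries, 72 of 3046 genes tested (2.36%) were higher and 60 (1.97%) lower in all haplodeficient members than in all control members. A gene counted when its log2 ratio, after adding 5 CPM to each side, was at least 1 in size and the intervals of its levels did not overlap, and it was tested only if its mean reached 50 CPM and its UMIs over both libraries 30. The median log2 ratio of all genes tested was 0.20. Scaled by the median of gene ratios, which brought that median to -0.01, 42 genes were higher and 102 lower, and with mitochondrially encoded genes left out of the totals the counts were 56 and 106. These ratios set 935 cells, mostly early-low, against 68 cells, mostly early-positive, so for many genes the value in the early-low members alone is given beside it.

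Of 12 listed transport genes of the late segment 8 were tested over all members, none was higher and 4 were lower, with a median log2 ratio of -0.95. In early-low members 88 of 2865 genes (3.07%) were higher and 56 (1.95%) lower, and the median of all genes was 0.14. None of the 10 late transport genes tested there was called, and their median was -0.09. Early-low members of both libraries met the same limits on late and early UMIs, which favours like levels of such genes. Their nearness is thus a description. Slc5a8, a sodium-coupled lactate and monocarboxylate transporter, stood at 256 CPM (248 to 264) in control and 72.8 CPM (59.8 to 87.9) in haplodeficient members. In early-low members it stood at 381 CPM (369 to 393) and 372 CPM (300.0 to 456). Ggt1, the brush-border enzyme that opens the breakdown of glutathione, stood at 565 and 273 CPM in all members and at 719 and 748 CPM in early-low ones. Slc6a18, a neutral amino acid transporter, stood at 220.2 and 87.5 CPM, and at 317 and 311 CPM in early-low members. Slc5a10, a fructose and mannose transporter, stood at 162 and 37.4 CPM, and at 231 and 178 CPM. In early-low members the intervals of Slc5a8, Ggt1 and Slc6a18 overlapped between the libraries.

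Acsm3 was past the size rule over all members and not in early-low ones. It stood at 224 CPM (217 to 232) in all control and 49.4 CPM (38.8 to 62.1) in all haplodeficient members, a log2 ratio of -2.08. In early-low members the levels were 353 CPM (341 to 365) and 275 CPM (214 to 349), a CPM ratio of 0.779 (0.604 to 0.990). That interval leaves out the spread between cells. Of the 68 haplodeficient UMIs 21 were in 1 cell, and 10 of the 14 cells had any. In early-positive members Acsm3 had 189 UMIs in 73 of 300 control cells (29.7 CPM, 25.6 to 34.2) and 6 UMIs in 3 of 54 haplodeficient ones (1.76 to 10.5 CPM). Acsm3 spans 119760923 to 119787513 of chromosome 7, plus strand (GRCm38, GENCODE M21). Slc7a13 (chromosome 4, 19818725 to 19842218, plus strand) and Slc22a30 (chromosome 19, 8335371 to 8405111, minus strand) were used by the rule, and in early-low members stood at 513 and 372 CPM and at 261 and 206 CPM.

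**Figure D2:**
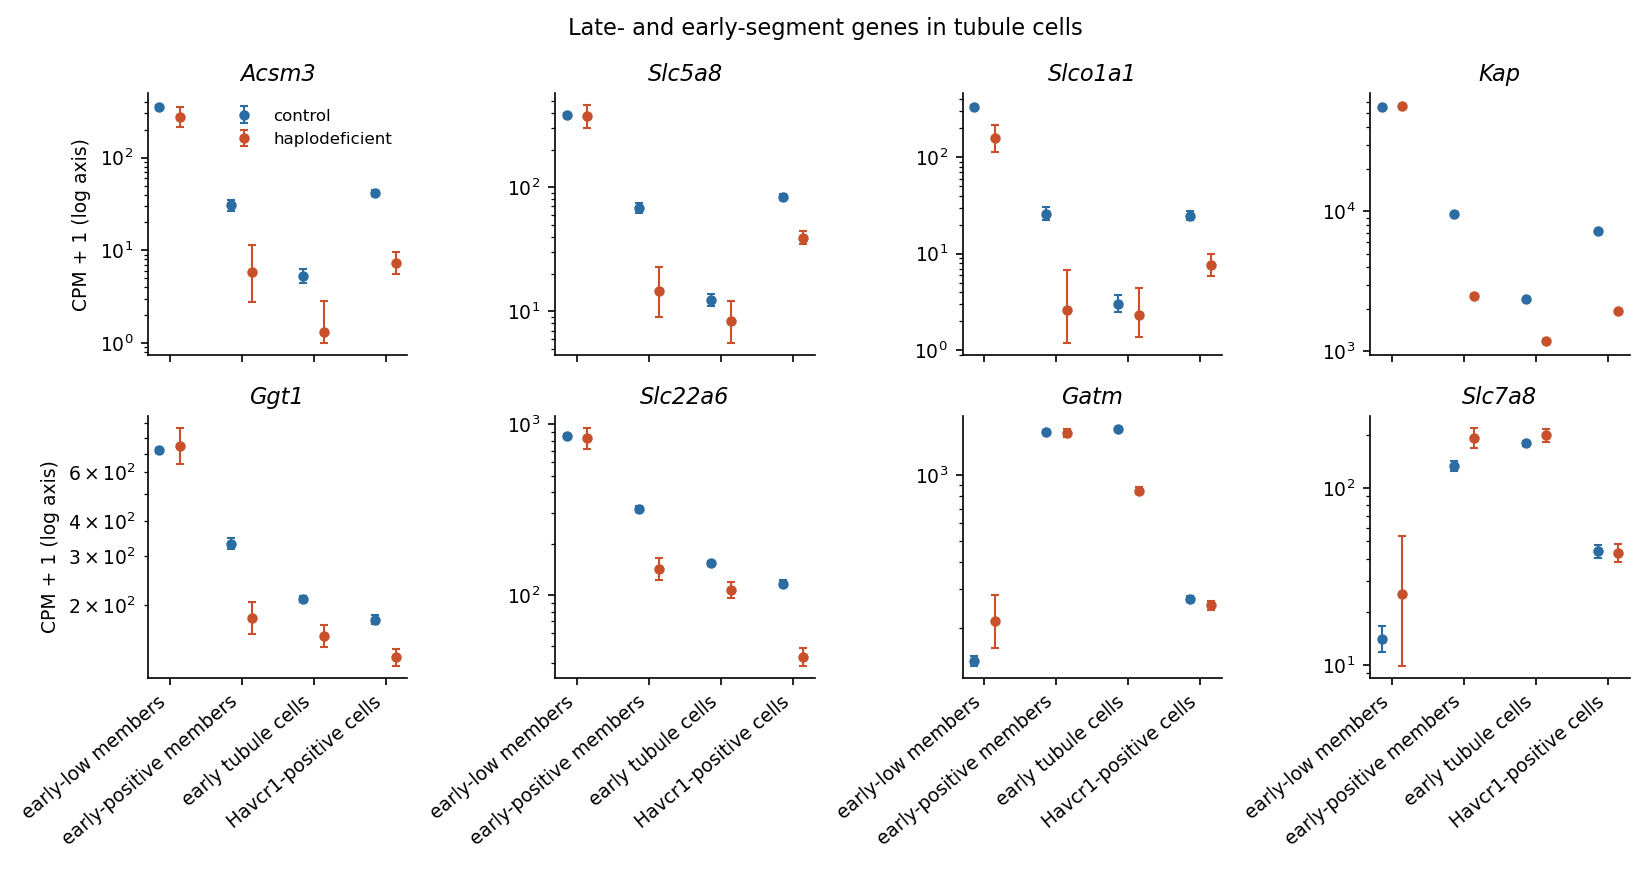
Levels of 8 segment genes (CPM + 1, log axis) in early-low members, early-positive members, early tubule cells and Havcr1-positive cells of the control (blue) and haplodeficient (orange) library, with 95% Poisson intervals. Acsm3, Slc5a8 and Kap are high in early-low members of both libraries, and Gatm is high in early-positive members and early tubule cells.

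Of 9 listed transport genes of the early segment, all tested over all members, 2 were higher and none lower, with a median of 0.53. Slc5a2 stood at 205 CPM in control and 461 CPM in haplodeficient members, and Slc7a8, a basolateral neutral amino acid exchanger, at 60.8 and 164 CPM. In early-low members 5 of the 9 were tested, none was called, and their median was -0.15. Slc5a2 and Slc5a12, whose UMIs made the split, were left out there, and the split favours like levels of the others. Gatm, which makes the creatine precursor guanidinoacetate, stood at 709 CPM in control and 1334 CPM in haplodeficient members, at 140.3 and 214 CPM in early-low members, and at 1570 and 1556 CPM in early-positive ones.

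Organic ion transporters, which are listed for S2 and extend into S3, had 3 lower and none higher of 9 tested over all members, with a median of -0.84. Slc22a6 (OAT1), which takes up organic anions from blood, stood at 643 and 255 CPM in all members and at 857 CPM (839 to 876) and 825 CPM (716 to 947) in early-low ones. Slc22a8 (OAT3), of the same function, was lower in each kind of member. It stood at 239 and 96.9 CPM over all members, at 174 and 56.6 CPM in early-low and at 339 and 105 CPM in early-positive members. Early proximal tubule cells, defined below, also had less Slc22a8 in the haplodeficient library, at 308 and 62.3 CPM. In the 14 early-low cells 1 cell held 64.3% of its 14 UMIs, and without that cell the level was 22.0 CPM. Slc13a3, a sodium-dicarboxylate transporter, stood at 189 and 89.5 CPM over all members and at 208 and 174 CPM in early-low ones.

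Over all members 4 of 8 male-biased kidney genes were lower and 1 higher, with a median of -1.10. In early-low members 2 were lower and 1 higher, with a median of 0.16. Kap stood at 37325 CPM in control and 11365 CPM in haplodeficient members. In early-low members it stood at 55698 CPM (55549 to 55847) and 56166 CPM (55235 to 57108), a ratio of 1.01 (0.991 to 1.03). Per cell, a UMI of Kap was present in 634 of 635 and 14 of 14 early-low members. Of 4 listed female-biased kidney genes none was tested over all members, and their sum was lower too, at 182 and 47.4 CPM. In early-low members 2 of these were tested, none was called, and the sums were 254 and 214 CPM.

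Rdh16f2, a retinol dehydrogenase family gene, was lower in both kinds of member. It stood at 185 CPM (179 to 192) and 12.7 CPM (7.64 to 19.8) over all members, and at 243 CPM (234 to 253) and 44.5 CPM (22.2 to 79.6) in early-low ones. It had a UMI in 545 of 635 control but 4 of 14 haplodeficient early-low members, and 1 of those 4 held 72.7% of its UMIs there. Slco1a1, an organic anion and steroid conjugate transporter, stood at 209 and 27.4 CPM over all members, and at 331 CPM (320 to 343) and 158 CPM (112 to 216) in early-low ones, with a UMI in 521 of 635 and 6 of 14 cells. Odc1, which makes putrescine, was higher, at 178 and 379 CPM over all members and 146 and 368 CPM in early-low ones. The direction of Odc1 turned, to a log2 ratio of -0.54, without cells holding 3 or more UMIs of other cell types. In early-low members Kap was thus level where Rdh16f2 and Slco1a1 were lower and Odc1 higher.

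**Figure D3:**
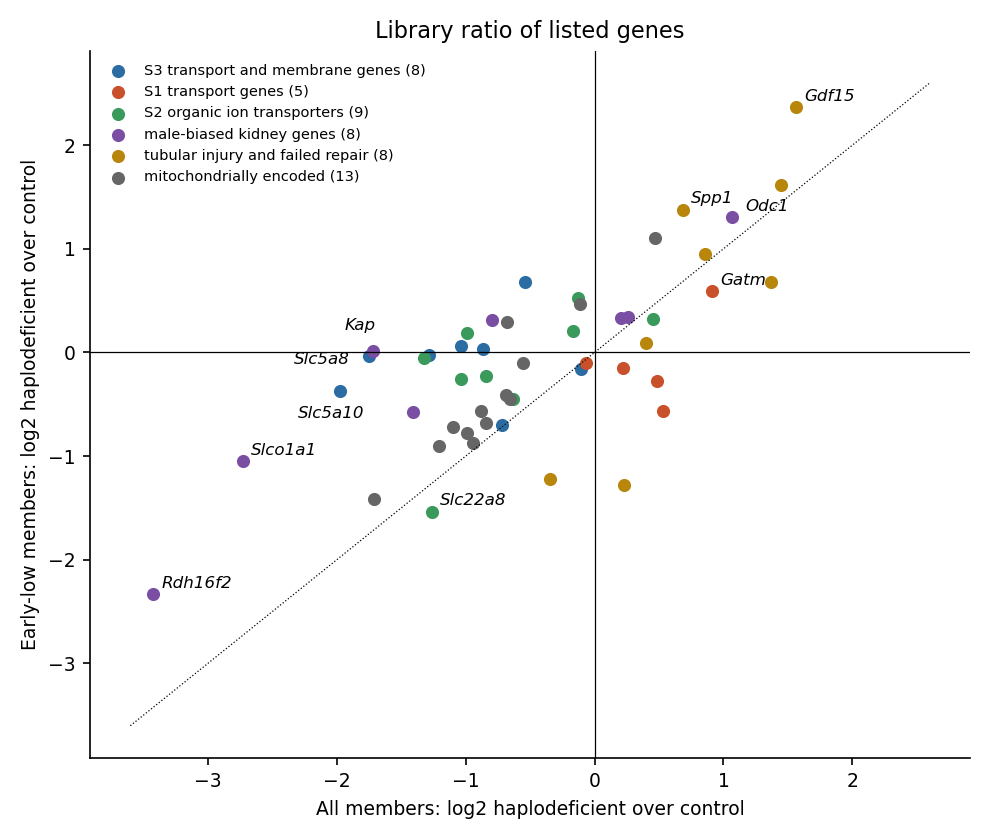
Log2 ratio of haplodeficient over control level for listed genes tested in both sets, over all members (horizontal) and over early-low members (vertical), with the dotted line where both are equal. The late transport gene Slc5a8 and Kap lie left of 0 but near 0 on the vertical axis, while Rdh16f2 and Slco1a1 are below 0 on both axes.

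Of 22 listed fatty acid oxidation and peroxisome genes 19 were tested, with 4 lower over all members (Cyp4a10, Ehhadh, Cpt2, Hao2) and 2 lower in early-low members. Cyp4a10, a fatty acid omega-hydroxylase, stood at 249 and 40.8 CPM over all members, at 327 CPM (315 to 338) and 105 CPM (68.7 to 154) in early-low and at 131 and 28.0 CPM in early-positive ones. Cpt2, the inner-membrane carnitine palmitoyltransferase, stood at 89.0 and 37.4 CPM over all members and 102 and 44.5 CPM in early-low ones. Cyp4a14, related to Cyp4a10, had 709 UMIs (73.5 CPM) in control early-low members and none in the 14 haplodeficient ones, where a count of 0 has an interval up to 14.9 CPM.

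Of 6 gluconeogenic genes 1 was lower over all members and a different 1 in early-low members. Pck1, the cytosolic phosphoenolpyruvate carboxykinase, stood at 1106 and 362 CPM over all members and at 1349 and 922 CPM in early-low ones. Pcx, pyruvate carboxylase, stood at 223 and 138 CPM over all members and at 205 CPM (196 to 214) and 72.8 CPM (43.2 to 115) in early-low ones. Of 18 detoxification genes tested 3 were lower over all members (Cyp4b1, Ces1f, Ugt3a1) and none of these in early-low members, where Gsta2 was higher, at 59.4 and 162 CPM, with 80.0% of its UMIs in 1 of the 14 cells and 38.2 CPM without it. The 9 transcription factors tested included none past the size rule in either set. Hnf4a, which maintains the proximal tubule programme, stood at 190.3 CPM (184 to 197) and 212 CPM (189 to 236) over all members and at 185 and 194 CPM in early-low ones.

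Slc3a1 (rBAT), the partner subunit of Slc7a13, stood at 319 and 192 CPM over all members and at 365 and 222 CPM in early-low ones, below the size rule in both. Its promoter is shown because it was the single late-gene promoter, among 18 RefSeq windows of 14 of the 19 listed late genes, that held the HNF4-type word CAAAGTCCA on either strand. The 250 bases before its start lie at chr17:85028097-85028346 (GRCm38.p6, plus strand), and the capitals mark that word, which begins 39 bases before the start.

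Slc3a1: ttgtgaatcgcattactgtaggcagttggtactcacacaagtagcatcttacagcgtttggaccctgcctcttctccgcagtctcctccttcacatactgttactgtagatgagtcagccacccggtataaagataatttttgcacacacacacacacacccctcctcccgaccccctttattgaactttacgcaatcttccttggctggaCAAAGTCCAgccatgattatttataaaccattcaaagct

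The word was in 0.475% of 32851 promoter windows of 300 bases. A second HNF4-type word, CAAAGGTCA, was in 0.478% of all windows and in none of the 18. The HNF1-type word, GTTAAT followed by any base and ATTAA, was in 0.0609% of all windows and in none of the 18. The shorter GTTAAT, which is contained in it, was in 7.10% of all windows and in 2 of the 18, of Slc3a1 and Slc5a10. In Slc3a1 that match lies after the start, outside the bases shown. A match is a description of letters and not a binding site.

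Of 21 listed genes of tubular injury and failed repair 13 were tested over all members, and 4 were higher in the haplodeficient library and none lower, with a median of 0.68. Gdf15, a stress-induced cytokine, stood at 64.0 CPM (60.1 to 68.0) in control and 199 CPM (177 to 223) in haplodeficient members. It was higher in each kind of member, at 68.1 and 372 CPM in early-low and 57.8 and 165 CPM in early-positive ones. Gdf15 was higher in early proximal tubule cells too, at 72.0 and 502 CPM, so the difference was not particular to members. The injury list had a median log2 ratio of 0.70 in those early cells, where the median of all genes tested was 0.22. Of the 14 early-low cells 5 had a UMI of it, and 201 CPM were left without the cell that held most. The direction of Gdf15 turned, to a log2 ratio of -3.91, when cells with 3 or more UMIs of other cell types were removed, which left 141 control and 6 haplodeficient members, and the median of the injury list turned to -0.68 when the rule was applied after thinning to 2000 UMIs, which left 153 and 4. Vcam1, an adhesion molecule of failed-repair tubule cells, stood at 46.6 and 136 CPM, and C3, the complement component, at 62.4 and 169 CPM, and C3 turned to a log2 ratio of -2.68 without the cells holding RNA of other types. Vim, the mesenchymal filament gene, stood at 14.5 and 139 CPM, but 1 cell held 96.2% of its haplodeficient UMIs and the level without it was 5.56 CPM.

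In early-low members 3 of 9 tested injury genes were higher (Vcam1, Spp1, Gdf15) and 2 lower (Cxcl1, Clu). Spp1 (osteopontin) stood at 2523 and 6565 CPM. Of these cells 1 had 1007 of its 1623 UMIs, and without that cell the level was 2940 CPM. Vcam1 stood at 27.0 and 93.0 CPM, with 82.6% of UMIs in 1 cell and 17.0 CPM without it, below the control level. Krt8, a keratin of stressed tubules, stood at 224 and 437 CPM, a log2 ratio of 0.95, and had a UMI in 12 of 14 cells. Without its leading cell Krt8 stood at 364 CPM, so Gdf15, Spp1 and Krt8 were then above the control level and Vcam1 below it.

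**Figure D4:**
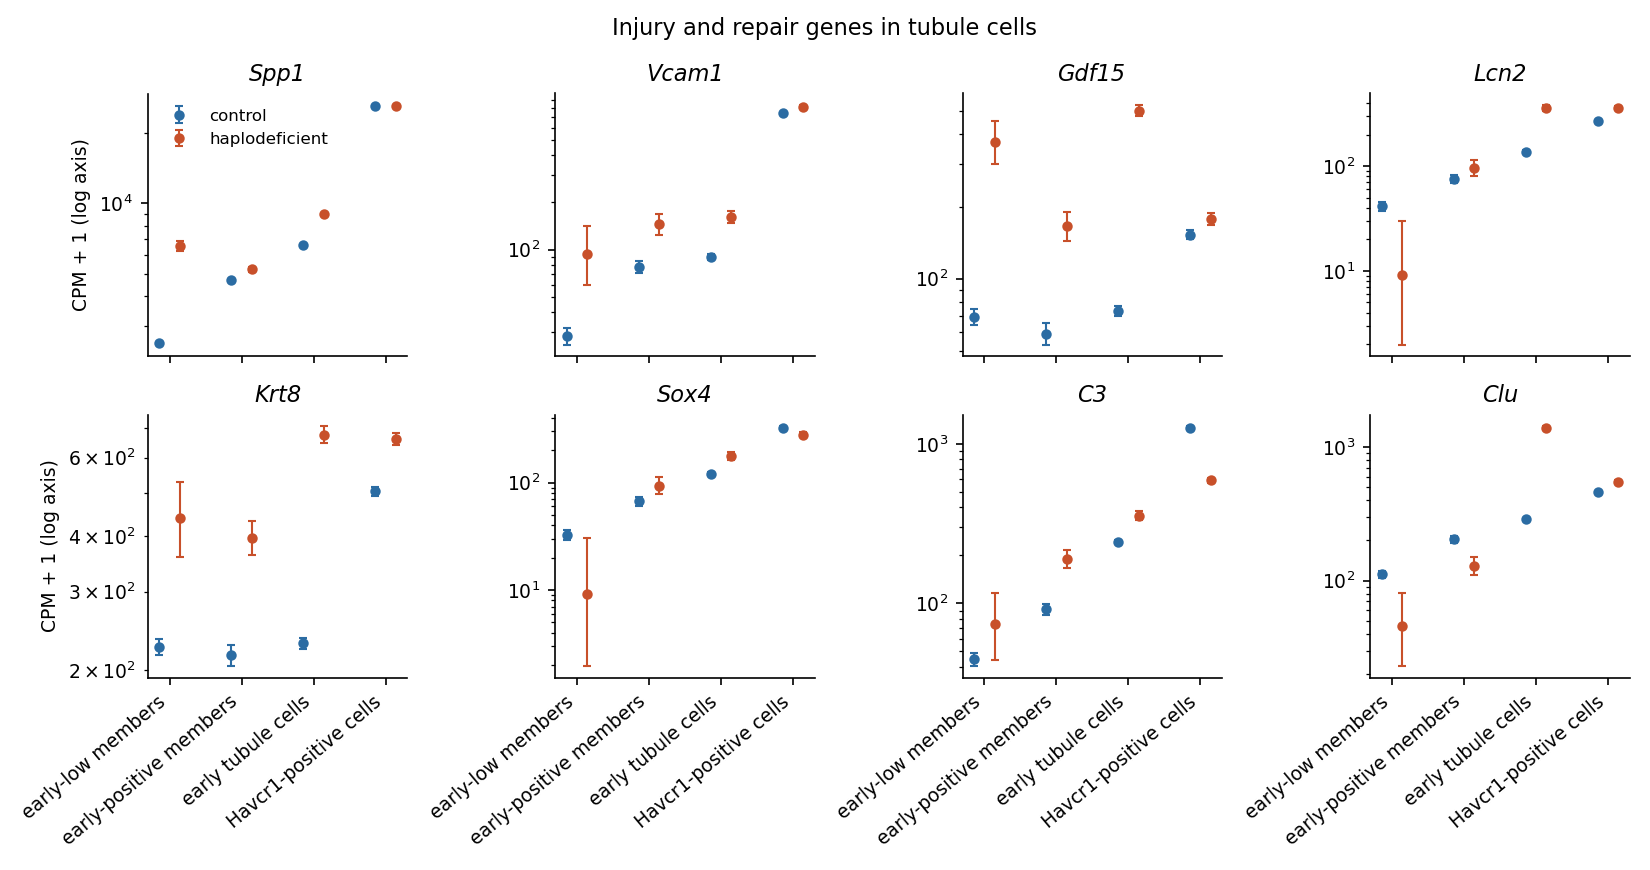
Levels of 8 injury and repair genes (CPM + 1, log axis) in early-low members, early-positive members, early tubule cells and Havcr1-positive cells, control in blue and haplodeficient in orange, with 95% Poisson intervals. Spp1, Vcam1 and C3 are highest in Havcr1-positive cells of both libraries. Gdf15 is higher in haplodeficient than control cells in either kind of member and in early tubule cells.

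Of 14 listed interferon and antigen presentation genes 3 were tested, all higher over all members. B2m, the class I light chain, stood at 261 and 582 CPM over all members, H2-K1 at 185 and 535 CPM and H2-D1 at 152 and 351 CPM. In early-low members 1 of the 3 was past the size rule, H2-D1, at 136 and 332 CPM. In early proximal tubule cells 5 genes of this list were tested, with a median log2 ratio of 1.20. Cd74, the class II invariant chain, stood at 185 CPM (178 to 192) and 753 CPM (710 to 798) over all members, and at 139 and 595 CPM in early-low ones, of which 1 cell held 72.1% and without which 196 CPM were left. The log2 ratio of Cd74 was 2.00 over all members and 1.61 in early proximal tubule cells. Cd74 is abundant in leukocytes, whose other listed markers were low. Lyz2 stood at 13.9 and 24.7 CPM, and C1qa, C1qb, Cd3e and S100a8 at 6.01 CPM or less in both libraries. The 6 leukocyte markers summed to 205 and 793 CPM over all members, and their part in the result was not tested.

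Of 13 mitochondrially encoded genes 3 were lower over all members and none higher, with a median of -0.84, and their sum was 207559 and 111452 CPM. In early-low members their sum was 201706 and 129931 CPM, with a median of -0.57, and 1 gene lower (mt-Nd3) and 1 higher (mt-Nd4l). mt-Nd3 stood at 8094 and 2476 CPM over all members. In early proximal tubule cells the median log2 ratio of the 13 genes was -1.39. Over all cells the mitochondrial share was lower in the haplodeficient library too, and the part of that library difference in these values was not tested. Iron and ferroptosis genes had none of 5 tested past the rule, with Gpx4 at 1102 and 1187 CPM. The glycolysis and hypoxia list had none of 6 past the rule. Egln3 itself had 15 UMIs among the 16020676 of control members and 2 among the 1496467 of haplodeficient members, too few to compare.

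**Figure D5:**
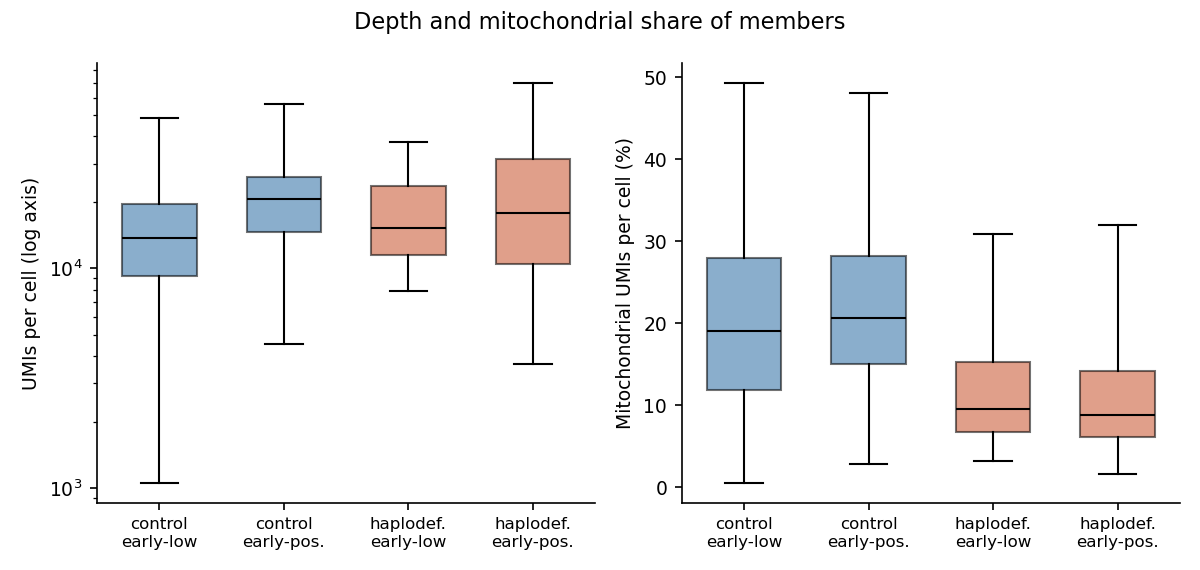
UMIs per cell (log axis, left) and mitochondrial share of UMIs per cell (right) for both kinds of member in each library. Boxes span the quartiles with a line at the median and whiskers reach the lowest and highest cell. Median depth was 13742 and 15280.5 UMIs in control and haplodeficient early-low members, and the median mitochondrial share 19.0% and 9.58%.

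Of the genes furthest apart between the libraries over all members, those lowest in haplodeficient cells were Rdh16f2, Cyp2a4, Akr1c14, Slco1a1, D630029K05Rik, Cyp4a10, Acsm3, Cyp51, Slc5a10 and Sox2ot, with log2 ratios from -3.43 to -1.78. Cyp51, the sterol demethylase of cholesterol synthesis, stood at 231 and 53.5 CPM, and at 350.2 and 109 CPM in early-low members. Cyp2a4, a steroid hydroxylase, stood at 107 and 6.01 CPM, and at 167 and 36.4 CPM in early-low members. The highest were Vim, Sparc, Cpn1, Ptgds, S100a6, Anxa2, Rpl29, Cd74, Tmsb10 and Selenow, from 2.88 to 1.95. Cpn1, a carboxypeptidase subunit, stood at 54.6 and 321 CPM, with a UMI in 59 of 68 haplodeficient cells. Rpl29, a ribosomal protein gene, stood at 81.1 and 339 CPM, and at 83.4 and 311 CPM in early-low members, with a UMI in 14 of 14. In early proximal tubule cells Rpl29 stood at 85.7 and 411 CPM, so its difference was not particular to members. S100a6, Anxa2 and Tmsb10 rested on 1 cell for 85.1%, 55.2% and 53.8% of their haplodeficient UMIs. Without it they stood at 57.0, 54.2 and 81.4 CPM, against 71.2, 23.3 and 39.7 CPM in the control. Without the leading control cell those control levels were 59.7, 21.0 and 35.5 CPM. Their estimated free-RNA parts were 62.4%, 61.8% and 89.2% in control members and 37.1%, 21.5% and 64.2% in haplodeficient ones.

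Early-low members had further genes past the rule. The lowest were Umod, Rdh16f2, Cyp2a4, Etv6, Gm4208, Mylip, Acox3, Ier3, Cyp51 and Rarres2. Umod, the thick limb gene uromodulin, stood at 268 and 16.2 CPM, with 4 UMIs in 4 of the 14 cells. Of the control UMIs of Umod 1 cell held 24.99%, and the estimated free-RNA part was 67.2%. Among the highest were Ptgds, Gdf15, Selenow, Tgfb2, Cpn1, Cd74, Hspb1, Rpl29 and Crym. Crym, a thyroid hormone-binding protein, stood at 29.1 and 109 CPM with a UMI in 11 of 14 cells and 95.5 CPM without the leading cell. Ptgds, Selenow and Tgfb2 had 83.8%, 80.6% and 93.9% of their haplodeficient UMIs in 1 cell. Cpn1 and Hspb1 had 58.5% and 45.5% in 1 cell. Without it they stood at 81.1 and 77.2 CPM, against 34.6 and 30.7 CPM in the control. In early-positive members 50 of 3115 genes (1.61%) were higher and 31 (0.995%) lower.

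The other thick limb genes also differed by kind of member. Slc12a1, the cotransporter of the thick limb, stood at 71.7 and 258 CPM over all members, with 64.5% of the haplodeficient UMIs in 1 cell and 94.9 CPM without it. It had no UMI in haplodeficient early-low members, against 75.1 CPM in control ones. The 4 thick limb markers summed to 591 and 1073 CPM over all members and to 618 and 275 CPM in early-low ones. All 6 endothelial markers were at 0 in the 14 haplodeficient early-low cells and summed to 28.1 CPM in control ones. Stromal markers summed to at most 8.29 CPM in either library and either set. The estimated share of free RNA, a median over marker genes, was 12.8% in control and 0.349% in haplodeficient early-low members, and 5.92% and 7.79% in early-positive ones. At least 3 UMIs of markers of other cell types were found in 794 of 935 control and 62 of 68 haplodeficient members, and the part of this RNA in the ratios was not tested.

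Compared with early proximal tubule cells (3 or more UMIs of Slc5a2 and Slc5a12, fewer than 3 of the late pair, fewer than 3 of Havcr1 and no Ptprc), 1577 in control and 239 in haplodeficient samples, all control members had 100 of 2889 genes (3.46%) higher and 52 (1.8%) lower. All haplodeficient members had 22 of 3315 (0.664%) higher and 51 (1.54%) lower. Called in the same direction in both libraries were 17 higher and 7 lower genes. Early-low members had 156 of 2844 genes (5.49%) higher and 117 (4.11%) lower than early cells in the control, and 197 of 3192 (6.17%) higher and 271 (8.49%) lower in the haplodeficient library. Of 2673 genes tested in both, 111 were higher and 70 lower in both libraries, and none was called in opposite directions. These cells were set apart by genes of the same programme, so the counts are a description.

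Early-low members had in both libraries been chosen by late UMIs and few early ones, so their late programme is a description. Its highest genes over early cells were Acsm3, Slco1a1, Kap, Slc5a8, Lpl, Cd36, Nat8f6, Nat8, Agps and Mpv17l. Acsm3 stood at 353 against 4.30 CPM in the control and at 275 against 0.331 CPM in the haplodeficient library, where early cells had 1 UMI. Kap stood at 55698 against 2361 CPM and at 56166 against 1189 CPM. Lpl (lipoprotein lipase) stood at 308 against 52.0 CPM and at 344 against 7.62 CPM. Cd36, a fatty acid receptor, stood at 238 against 13.8 CPM and at 210.3 against 13.9 CPM. Agps, which makes ether lipid precursors in peroxisomes, stood at 440.4 against 37.8 CPM and at 793 against 87.2 CPM. Of the S3 transport genes tested, 6 of 8 were higher in each library, among them Atp11a, a lipid flippase, Slc5a10 and Slc6a18.

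The lowest genes in early-low members were Spp2, Pde1a, Npl, Epb41l3, Lcn2, Slc6a19, Clu, Slc7a8, Fabp3 and Sox4. Spp2 stood at 9.43 against 819 CPM in the control and at 20.2 against 272 CPM in the haplodeficient library. Slc6a19, the early neutral amino acid transporter, stood at 20.2 against 408 CPM and at 24.3 against 142 CPM. Slc7a7 stood at 74.3 against 443 CPM and at 48.5 against 277 CPM. Of 7 early transport genes tested 5 were lower in each library, again a description of cells chosen for few early UMIs. Of the injury list 8 of 13 tested were lower in control early-low members than in early cells and 9 of 16 in haplodeficient ones. Lcn2, the injury marker NGAL, stood at 40.3 against 137 CPM and at 8.09 against 358 CPM, and Clu at 110.4 against 287 CPM and at 44.5 against 1378 CPM.

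Against Havcr1-positive cells without Ptprc (587 control and 239 haplodeficient), members had higher levels of mature tubule genes in both libraries. Members were chosen for the late pair and few Havcr1 UMIs, and the other cells for Havcr1, so these differences are a description. All control members had 227 of 3243 genes (7%) higher and 370 (11.4%) lower, and all haplodeficient members 283 of 3457 (8.19%) higher and 273 (7.9%) lower, with 166 higher and 196 lower in both. Early-low members alone had 265 of 3205 (8.27%) higher and 462 (14.4%) lower in the control, and 374 of 3306 (11.3%) higher and 520 (15.7%) lower in the haplodeficient library. In this comparison 2 genes of 2934 were called in opposite directions, Gdf15 (68.1 against 152 CPM in the control, 372 against 177 CPM in the haplodeficient library) and Gsta2. Both rested on few of the 14 haplodeficient cells. Gdf15 had a UMI in 5 of them and stood at 201 CPM without its leading cell. Gsta2 without its leading cell, as given above, was below the 64.6 CPM of the Havcr1-positive cells, so its direction was then not opposite. The gluconeogenesis list had 6 of 6 genes higher in each library. G6pc, glucose-6-phosphatase, stood at 305 against 34.9 CPM and at 167 against 23.1 CPM, and Miox, myo-inositol oxygenase, at 2068 against 374 CPM and at 1477 against 221 CPM. Of the injury list 17 of 19 tested genes were lower in control and 14 of 19 in haplodeficient members. Ccl2, a monocyte chemokine, stood at 1.69 against 237 CPM and at 6.01 against 379.9 CPM, and Nupr1, a stress-response gene, at 19.9 against 242 CPM and at 22.1 against 467 CPM. Havcr1 itself chose these cells, so its levels are not compared.

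There were 83 control and 25 haplodeficient cells with both Havcr1 and the late pair and without Ptprc. Their Kap level was 29039 and 10159 CPM, between early-low members and Havcr1-positive cells as a whole. Acsm3 stood at 199 CPM (181 to 218) and 42.6 CPM (29.7 to 59.2), and Vcam1 at 272 CPM (252 to 294) and 273 CPM (238 to 311). Taking late members, early cells and Havcr1-positive cells together as tubule cells, early-low members were 20.5% (19.1 to 22.0) of 3099 control and 2.56% (1.41 to 4.26) of 546 haplodeficient ones. The share of cells and the number lost during preparation cannot be told apart here.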

How the data were processed

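Droplet 3′ single-cell RNA of injured kidneys was measured in 2 libraries, 1 per group. The deposited matrices hold raw UMI counts for every gene in every barcode. The authors produced them with Cell Ranger 4.0, per the file headers, on mm10 per the submitters' processing notes; the annotation was not given in the sources used here. Barcodes were not filtered to cells. Cell hashing is mentioned in the labels' protocols, but every feature was a gene.

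Cells and members were selected as stated in the report, UMIs were summed over each set of cells per library and divided by their total to give CPM, and log2 ratios were taken after adding 5 CPM. Levels have exact Poisson intervals, shares exact Clopper-Pearson intervals and ratios exact conditional binomial intervals, all at 95% and for counting error only. No test between groups was run. The size rule was run on simulated Poisson counts of the summed control profile. These hold no differences between cells, so the run cannot show how often a single cell makes a gene pass. Free RNA came from barcodes of 1 to 100 UMIs, its share in a set being the median over other cell types' markers of at least 50 expected UMIs, without Cd74, Cldn10 and markers above their free level. Doublets were scored with Scrublet (scanpy 1.11.5), the highest 0.8% per 1000 cells being marked, and kept, except in an alternative. Coordinates came from GENCODE M21, which matched 99.8% of 32285 genes, and promoters from RefSeq. Named genes were the 10 highest and 10 lowest of each comparison and, per list, those past the size rule or else the most abundant; some of these are not reported here. Genes outside that rule, such as Slc3a1, Krt8, Slc13a3, Cyp4a14, Gatm and Pck1 in some sets, were named after their values were seen. The members and all lists were chosen with earlier results of these data known. Python 3.11.15, numpy 2.4.6, scipy 1.17.1 and pandas 2.3.3 were used.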

Additional observations from a re-analysis of the deposited data

How the results depend on the processing

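Over 15 alternative settings and 72 results, 53 of 98 values of the main comparisons stayed within their counting error or 1.5 times the count, and 45 did not. For list medians this error was the median of the genes' own ratio bounds, which is not an interval of the median itself. That choice, and a cut in the number of lists counted as main, came after seeing how many values would be printed. The tally is thus a description. The share of members in the haplodeficient minus the control library, -9.21 percentage points, was negative under every setting run: -4.84 with 6 UMIs of the late pair (480 and 24 members), -1.77 after thinning to 2000 UMIs, -7.64 with a mitochondrial limit of 25%, -1.43 without cells holding 3 or more UMIs of other cell types, -10.3 with a minimum of 2000 UMIs, -6.58 for early-low and -2.64 for early-positive members. These last 2 settings were chosen after seeing the data.

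The 72 higher genes became 252 without cells holding RNA of other types, 175 at a mean of 10 CPM, 216 with no CPM minimum and 42 with median-of-ratios scaling. The 60 lower genes became 31 in early-positive members, 140 at 10 CPM, 176 with no minimum, 102 with median-of-ratios scaling and 106 without mitochondrial genes.

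The S3 transport median of -0.95 was -0.62 with 6 UMIs, -0.58 thinned, -0.50 without cells holding other RNA, -0.094 in early-low and -0.55 in early-positive members, -1.16 with no CPM minimum and -1.16 with median-of-ratios scaling. The S1 transport median of 0.53 was 1.11, 0.86 and 1.05 in the first 3 of these, -0.15 in early-low and -0.11 in early-positive members, 0.32 with median-of-ratios scaling, 0.37 without mitochondrial genes and 0.70 with cells weighted equally. The male-biased median of -1.10 was -0.72, -0.14 and -0.72 in those 3, 0.16 and -0.13 in the 2 kinds of member, -1.31, -1.27 and -0.84 in the last 3 settings. The injury median of 0.68 was -0.68 thinned, 0.50 at the 25% mitochondrial limit, 1.28 without cells holding other RNA, 0.36 in early-positive members, 0.47 with median-of-ratios scaling and 0.46 without mitochondrial genes.

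Of 735 values of single genes 40 turned direction, over 20 genes. With 6 UMIs the log2 ratio was -1.66 for Vim, -2.26 for S100a6, -0.17 for Anxa2 and -2.44 for Slc12a1. Thinned, it was -0.52 for Vim, -0.90 for Sparc, -1.78 for Ptgds, -1.63 for S100a6, -0.76 for Anxa2, -0.67 for Cd74, -2.22 for Tmsb10, -2.93 for Slc12a1, 0.27 for Slc13a3, -0.47 for Gdf15, 0.35 for Ces1f, 0.44 for Ggt1, 0.43 for Ugt3a1, -0.36 for C3, 0.74 for Slc22a8, 0.25 for Slc22a6 and 0.24 for mt-Nd2. Without cells holding other RNA it was -0.56 for Vim, -0.97 for Sparc, -3.115 for Ptgds, -1.19 for Anxa2, -1.95 for Tmsb10, -0.85 for Slc12a1, 0.11 for Slc13a3, -3.91 for Gdf15, -0.54 for Odc1 and -2.68 for C3. With likely doublets removed it was -0.074 for Slc12a1. In early-low members it was -2.44 for Vim, -1.94 for Sparc, -2.54 for S100a6, -0.53 for Tmsb10, -4.002 for Slc12a1, 0.052 for Aqp1, 0.012 for Kap and 0.058 for Ggt1.

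Thinning left 4 and the removal of cells with other RNA left 6 haplodeficient members, so these values rest on few cells, and the cause of each change was not tested. No paired analysis was possible because each group had 1 library, so leaving a library out was not an option. The 14 haplodeficient early-low cells held 247215 UMIs, so a gene with no UMI there has an upper limit of 14.9 CPM.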
